A study of Mus musculus with 6 samples.

Results

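Spliced intergenic assembled transcripts are RNAs that the assembler StringTie built from the reads with at least 2 exons, and that the deposited table classes as lying outside annotated genes. They were the rows of the deposited isoform table with class code u, the mark for an assembled isoform set down as intergenic, and at least 2 exons. There were 384 such isoforms from 316 assembled loci, of 125793 isoforms in the table, and all 384 carry an assembler name (MSTRG) and no gene symbol. The 6 libraries came from untreated C57/Bl6 mouse neural stem cell (NSC) cultures grown without serum, with B27, FGF-2 and EGF: 3 are labelled wild type (WT) and 3 vimentin knock out (KO). Total RNA was depleted of ribosomal RNA and sequenced from both ends with its strand kept, so transcripts without a poly(A) tail could be measured too. Nothing in the labels ties a culture to an animal or tells how the Vim allele was made, so p-values measure the spread between these cultures, which may be technical.

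Most of the mammalian genome outside genes gives little RNA, but some stretches are transcribed, spliced and processed much like messenger RNA. Such long noncoding RNAs often have few exons, low levels and a narrow range of cell types. Many start at the promoter of a neighbouring gene and run the other way, since promoters commonly fire in both directions. Others are unannotated first or last exons of a known gene, or genes that an annotation has not yet listed.

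Vim RNA went against the labels, with 191, 179 and 186 FPKM (sequenced fragments corrected for transcript length and for the library's mapped total) in the libraries labelled WT and 650, 732 and 624 in those labelled KO. This is 3.61-fold more Vim RNA under the KO label, so libraries are called by their labels and all directions refer to these. Depth was 4.26 to 5.43 Gb of aligned bases per library. At the median length of the spliced intergenic isoforms, 561 bases, 1 FPKM equals 15.9 to 20.3 reads of 150 bases and 3 reads are worth 0.148 to 0.188 FPKM. Of 10 neural stem cell markers, 10 averaged 1 FPKM or more under the WT label and 8 under the KO label, and Sox2 was listed at 0 in WT 2 and in KO 1 to 3. Markers of microglia, of endothelium and of fibroblasts, each summed by cell type, came to at most 1.38, 0.758 and 0.332 FPKM in any library, with Cldn5 and Lum at 0 in all 6. The 7 neuron markers summed to 3.57 to 5.51 FPKM, and the 5 oligodendrocyte markers to 2.84 to 8.11 under the WT label and 1.97 to 2.13 under the KO label, with Stmn2 and Mag at 0; their part in the results was not tested. The library WT 2 stood apart in intergenic RNA and is described before the results below.

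The sequences below were picked by hand and not by a rule, so other loci with starts as close are not shown. Of these sequences, 5 are from loci that start at most 168 bases from the start of a gene that RefSeq lists on the same strand. The last covers the starts of an intergenic locus and of a gene that start back to back. Each is the 300 bases from 250 before the annotated start onward, 5′ to 3′ on the strand of the named gene, from RefSeq's GRCm38.p6 tables. Capitals mark the bases inside the span of the assembled locus.
MSTRG.2885 at Gm31815, chr1:161527155-161527454, minus strand: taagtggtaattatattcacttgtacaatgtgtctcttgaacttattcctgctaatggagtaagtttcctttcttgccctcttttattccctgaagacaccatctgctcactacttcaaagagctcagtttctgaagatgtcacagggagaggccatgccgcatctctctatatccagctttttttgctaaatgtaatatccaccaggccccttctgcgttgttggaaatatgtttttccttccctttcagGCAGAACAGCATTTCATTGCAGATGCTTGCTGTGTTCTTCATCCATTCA
MSTRG.21195 at D17H6S56E-5, chr17:35000697-35000996, minus strand: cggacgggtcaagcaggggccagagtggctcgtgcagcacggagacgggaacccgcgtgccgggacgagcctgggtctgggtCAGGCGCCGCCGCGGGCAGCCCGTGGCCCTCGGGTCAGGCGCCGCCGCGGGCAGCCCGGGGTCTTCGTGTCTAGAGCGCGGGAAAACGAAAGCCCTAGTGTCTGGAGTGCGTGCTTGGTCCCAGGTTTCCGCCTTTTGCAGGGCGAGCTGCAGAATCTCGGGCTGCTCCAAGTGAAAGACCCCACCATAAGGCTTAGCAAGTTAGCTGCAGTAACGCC
MSTRG.21133 at AA388235, chr17:33981242-33981541, plus strand: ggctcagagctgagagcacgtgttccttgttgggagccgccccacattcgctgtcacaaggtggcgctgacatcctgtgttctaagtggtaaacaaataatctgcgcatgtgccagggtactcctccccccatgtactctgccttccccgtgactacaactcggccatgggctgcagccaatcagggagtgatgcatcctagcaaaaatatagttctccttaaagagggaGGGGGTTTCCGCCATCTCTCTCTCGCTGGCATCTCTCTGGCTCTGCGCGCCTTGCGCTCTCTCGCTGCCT
MSTRG.46077 at Gm51502, chr7:136047820-136048119, plus strand: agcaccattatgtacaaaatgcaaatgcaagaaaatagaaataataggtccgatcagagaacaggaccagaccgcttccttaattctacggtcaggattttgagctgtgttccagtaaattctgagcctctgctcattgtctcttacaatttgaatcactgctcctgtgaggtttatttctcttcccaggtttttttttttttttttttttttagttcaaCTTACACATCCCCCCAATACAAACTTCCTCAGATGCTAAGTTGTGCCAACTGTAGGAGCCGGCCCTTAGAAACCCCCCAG
MSTRG.19935 at A630089N07Rik, chr16:98082390-98082689, minus strand: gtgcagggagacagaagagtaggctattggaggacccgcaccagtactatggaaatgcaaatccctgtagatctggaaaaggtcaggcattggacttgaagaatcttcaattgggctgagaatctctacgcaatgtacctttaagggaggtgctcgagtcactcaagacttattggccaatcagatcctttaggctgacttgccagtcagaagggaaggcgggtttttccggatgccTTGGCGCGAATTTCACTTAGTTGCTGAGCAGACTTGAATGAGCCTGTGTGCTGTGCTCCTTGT
MSTRG.36631 opposite Selenoi, chr5:30232331-30232630, plus strand of Selenoi: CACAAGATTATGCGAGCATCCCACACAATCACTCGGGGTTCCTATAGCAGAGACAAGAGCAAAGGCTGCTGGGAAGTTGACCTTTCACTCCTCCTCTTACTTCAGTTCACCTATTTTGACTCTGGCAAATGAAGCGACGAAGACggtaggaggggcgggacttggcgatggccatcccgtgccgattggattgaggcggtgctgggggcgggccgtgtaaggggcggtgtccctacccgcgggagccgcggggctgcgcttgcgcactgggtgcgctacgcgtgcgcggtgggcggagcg
The Gm31815 window held 2 CG steps and 41.3% G or C, and none of the 3 promoter motifs searched. The D17H6S56E-5 window held 29 CG steps and 67.0% G or C, again with none of the 3 motifs. The Selenoi window, 61.7% G or C, held the GC box 4 times, each between the start of MSTRG.36631 and the end of the window.

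The motifs searched, on both strands, were the GC box GGGCGG, the CCAAT box CCAAT and the TATA box TATAAA, and none of these letter runs contains another. Of 33 RefSeq windows whose annotated start lay within 100 bases of an assembled start, 24 held CCAAT (72.7%), 10 held GGGCGG (30.3%) and 1 held TATAAA (3.03%). Over all 32851 RefSeq promoter windows of the same length the shares were 37.4%, 35.7% and 13.6%. A match is a run of letters and not a measured binding site, and the A630089N07Rik window alone held 5 runs of CCAAT or its reverse complement.

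These isoforms were short and had few exons. Of the 384, 269 had 2 exons, 77 had 3, 24 had 4 and 14 had 5 or more, up to 7. Their spliced length had a median of 561 bases and ranged from 200 to 18183, and the genomic span had a median of 5340 bases. By comparison, 2191 annotated spliced lincRNA isoforms in the same table had a median of 3 exons and 1139 bases. The plus strand held 198 and the minus strand 186. In 276 loci there was 1 such isoform, and in 40 there were 2 or more.

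Levels were low. The mean over the 6 libraries had a median of 0.621 FPKM, equal to about 9.79 reads per library and isoform, and quartiles of 0.405 and 1.04 FPKM. Annotated spliced lincRNA isoforms had a median of 0.0358 FPKM and annotated spliced protein-coding isoforms 0.370 FPKM, but an assembled isoform enters the table only once it has reads, so these medians do not compare like with like. Of the spliced intergenic isoforms, 186 had a value above 0 in all 6 libraries (48.4%), against 17.3% of the 11950 single-exon isoforms of the same class code. At least 1 FPKM was reached in all 6 libraries by 34 isoforms, in exactly 1 library by 210 and in none by 28.

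WT 2 held the most of this RNA. Isoforms at 1 FPKM or more numbered 123 in WT 1, 235 in WT 2 and 99 in WT 3, and 101, 112 and 92 in KO 1, KO 2 and KO 3. Without WT 2 the 5 libraries lay between 92 and 123. Of the single-exon intergenic isoforms, 8343 were at 1 FPKM or more in WT 2 and 914 to 2070 in the other libraries, so the gap of WT 2 was wider there. Of 33 spliced isoforms with a value above 0 in 1 library alone, 23 had it in WT 2. The spliced isoforms held 0.126%, 0.195% and 0.120% of the summed FPKM in WT 1 to 3 and 0.112%, 0.122% and 0.111% in KO 1 to 3. The groups overlapped, and the group means of 0.147% ± 0.0414 and 0.115% ± 0.00573 (SD, n = 3) did not differ beyond this spread (exact two-sided permutation p = 0.2, where the smallest possible is 0.1). As a share of aligned bases, which gives short isoforms less weight, WT 2 held 0.113% and KO 2 also 0.113%, with the other libraries at 0.0896% to 0.107% (exact permutation p = 0.4, n = 3). The part of the single-exon intergenic RNA of WT 2 in the results below was not tested.

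**Figure D1:**
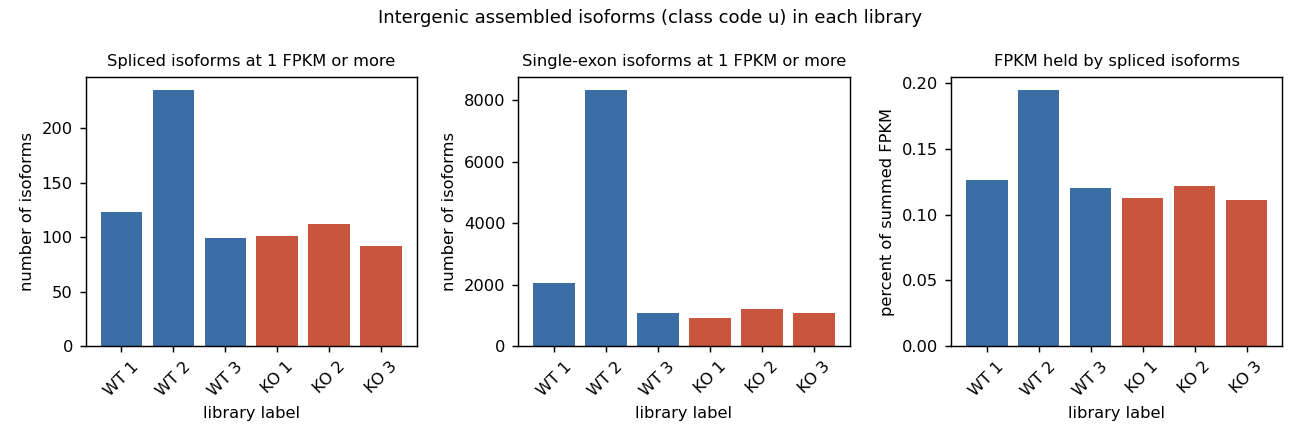
Bars give, for each library, the number of spliced intergenic isoforms at 1 FPKM or more, the number of single-exon intergenic isoforms at 1 FPKM or more, and the percent of summed FPKM held by the spliced ones; blue is the WT label and red the KO label. WT 2 has the tallest bar in each panel, with 235 spliced and 8343 single-exon isoforms.

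A minority of these transcripts, 54 of 384 (14.1%), lay under 1 kb from a gene and ran away from it on the opposite strand. The nearest annotated gene in the table was under 1 kb away for 93 isoforms (24.2%), between 1 and 5 kb for 62, between 5 and 50 kb for 155 and over 50 kb for 74, with a median of 10100 bases. Single-exon intergenic isoforms had a median of 7442 bases, but 7.42% of them lay under 1 kb. Another class code, p, held 3484 isoforms, none of them spliced, which are not counted here. The shares of spliced and single-exon isoforms near genes may therefore not compare like with like. Relative to the nearest gene, 139 spliced isoforms were divergent, meaning on the opposite strand beyond its 5′ end, 104 lay downstream on the same strand, 73 upstream on the same strand and 67 were convergent, on the opposite strand beyond its 3′ end. Under 1 kb, 54 of 93 were divergent, 17 lay downstream, 12 upstream and 9 were convergent. These 54 had a median of 0.934 FPKM, against 0.621 FPKM over all 384. The remaining isoform under 1 kb, MSTRG.303.1, goes against its class code, as it spanned the annotated microRNA gene Mir30a on its own strand. It was above 0 only in KO 2, at 0.147 FPKM. For 30 isoforms (7.81%) the nearest gene was described as a zinc finger gene, against 4.26% of single-exon intergenic isoforms.

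**Figure D2:**
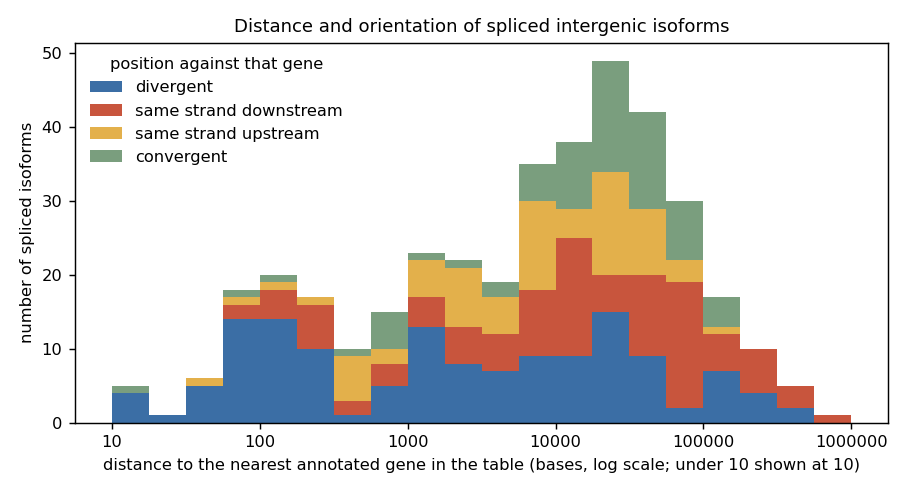
The histogram counts the spliced intergenic isoforms, all but MSTRG.303.1, by distance to the nearest annotated gene in the table, in bases on a log scale, with colours for the position and strand relative to that gene. The peak near 100 bases is mostly divergent, and the broad peak between 5 and 50 kb holds all 4 positions.

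Many of these transcripts fell where other annotation lists a gene. On the same strand, 169 isoforms (44.0%) overlapped a RefSeq gene of GRCm38.p6 with a known strand, 122 of them typed lncRNA and 47 protein-coding, and 61 had an end inside an exon of GENCODE release M21. With either, 189 isoforms had a listed gene (49.2%) and 195 had none. The assembled start lay within 100 bases of the RefSeq start for 43 isoforms and within 10 bases for 5, and for 37 the overlap covered at least 90% of the joint span. The 43 had a median of 1.05 FPKM and 1525 bases, longer than the 561 bases of all 384. The 5 isoforms with the most exons were of this kind in 3 cases: MSTRG.20554.1 had 7 exons and began 21 bases inside Gm7072, MSTRG.13786.1 had 7 exons and began 50 bases inside E430024I08Rik, and MSTRG.46077.5 had 6 exons and began 19 bases before Gm51502. MSTRG.20554.1 was at 3.41, 3.72 and 3.03 FPKM in WT 1 to 3 and 2.11, 3.35 and 2.21 in KO 1 to 3, and its groups overlapped. The other isoforms were MSTRG.13786.3, with 6 exons in the same locus as MSTRG.13786.1, and MSTRG.17766.9, with 6 exons and 7.32 FPKM in WT 2 against at most 1.18 FPKM in any other library.

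The comparison of the labelled groups asked which intergenic loci differed in RNA level. FPKM was summed over all class u isoforms of each locus, single-exon ones included. This was done since the division of reads among isoforms could vary between libraries. All 14816 loci of the table with a mean of at least 1 FPKM were tested together. Of the 316 spliced intergenic loci 96 reached that level, from 1.02 FPKM just inside to 0.991 just outside. Of the 96, 64 averaged 1 FPKM or more under both labels, 24 under the WT label alone and 8 under the KO label alone; the last 2 kinds passed the filter through the group where they are high, so the counts and medians over the 96 describe them and support no direction. In limma on log2(FPKM + 1), 1 of the 96 was higher and 3 were lower in the libraries labelled KO at a Benjamini-Hochberg adjusted p of 0.05, together 4.17%. Of all loci tested 4.79% were called, 2.42% higher and 2.36% lower. Without WT 2, 2 of 85 loci were higher and 1 lower (3.53%), against 5.52% of all loci, 3.18% higher and 2.34% lower. An unadjusted p under 0.05 was found at 20 of the 96 loci (20.8%; 21.1% of all loci), and at 18 of 85 without WT 2 (21.2%; 23.8% of all loci). The log2 fold change was negative at 62 of the 96 loci (64.6%; 56.2% of all loci), and at 46 of 85 without WT 2 (54.1%; 47.8% of all loci). The median log2 fold change was -0.18 over the 96 loci and -0.06 over all loci. Without WT 2 these medians were -0.08 and 0.02. The groups did not overlap at 25 loci (26.0%; 29.6% of all loci). The KO values lay all above the WT values at 6 of the 96 loci (6.25%; 14.5% of all loci) and all below at 19 (19.8%; 15.1% of all loci). Without WT 2, groups were apart at 36 of 85 (42.4%; 44.2% of all loci), with the KO values above at 12 and below at 24 (14.1% and 28.2%, against 24.1% and 20.1% of all loci). In bulk RNA, fewer cells with a transcript and less of it per cell cannot be told apart.

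**Figure D3:**
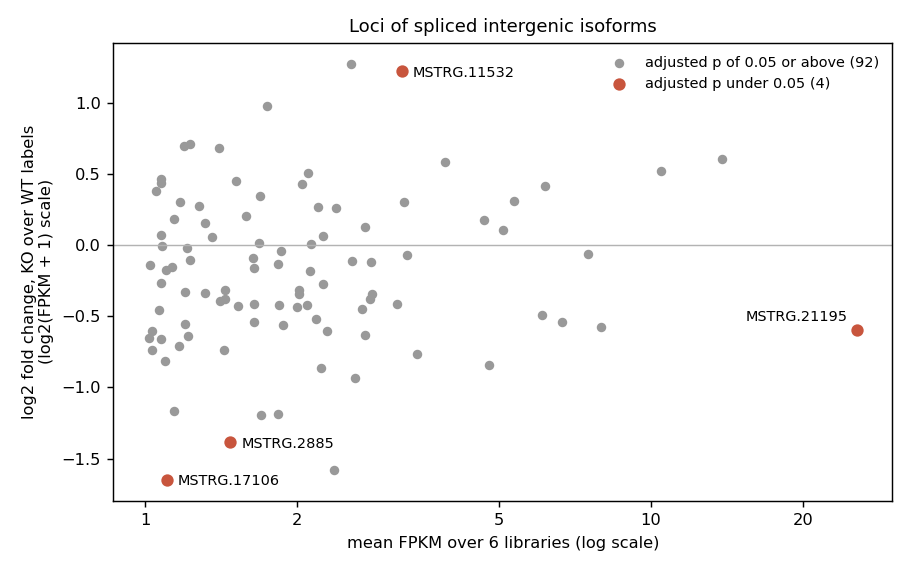
Each point is 1 of the 96 tested loci, with the mean FPKM over 6 libraries on a log axis and the log2 fold change, KO over WT labels, on the log2(FPKM + 1) scale. The 4 loci with an adjusted p under 0.05 are red, MSTRG.11532 above 0 and MSTRG.21195, MSTRG.2885 and MSTRG.17106 below.

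The called locus that was higher, MSTRG.11532, lies at chr12:83188304-83211916 on the minus strand. Its 1 isoform has 2 exons and 1924 bases and lies 1829 bases downstream of Dpf3, on the same strand. Dpf3 encodes a subunit of the BAF chromatin remodelling complex. The locus was at 1.83, 1.09 and 1.71 FPKM in WT 1 to 3 and at 5.18, 4.64 and 4.87 FPKM in KO 1 to 3. The groups were far apart, a 3.17-fold difference of means, and limma gave 1.22 as the log2 fold change (SE 0.17, Benjamini-Hochberg adjusted p = 0.0171). Dpf3 rose too, from 4.66 ± 0.752 to 10.1 ± 2.17 FPKM (SD, n = 3), for which limma gave 0.97 as the log2 fold change (SE 0.18, adjusted p = 0.0413). The call of MSTRG.11532 was lost without KO 1, KO 2 or KO 3 (adjusted p = 0.0863, 0.0787 and 0.0833, limma).

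The locus with the most RNA, MSTRG.21195, was lower. It lies at chr17:34995749-35000914 on the minus strand and starts 73 bases from Vars, the valyl-tRNA synthetase gene, which runs the other way. RefSeq lists the protein-coding gene D17H6S56E-5 there, with its start 168 bases inside the locus, in the second window above. The locus was at 31.1, 30.7 and 31.0 FPKM in WT 1 to 3 and at 21.3, 18.4 and 20.8 FPKM in KO 1 to 3. The WT values were close together and all lay above the KO values, a 1.53-fold difference of means for which limma gave -0.60 as the log2 fold change (SE 0.09, adjusted p = 0.0241). The Vars locus had 46.5 ± 3.39 FPKM in the libraries labelled WT and 57.4 ± 1.38 in those labelled KO (SD, n = 3) and did not pass (log2 fold change 0.30, adjusted p = 0.128, limma). The call of MSTRG.21195 was lost without WT 1, WT 3, KO 1, KO 2 or KO 3 (adjusted p = 0.0783 to 0.0967) and held without WT 2 (adjusted p = 0.0438, limma).

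MSTRG.17106, at chr15:63065130-63073805 on the minus strand, has 1 spliced isoform of 4 exons and 2875 bases. It is 83313 bases from the nearest gene in the table, the pseudogene Tsg101-ps, and overlaps the RefSeq lncRNA gene Gm41334. The locus was at 1.83, 2.41 and 2.34 FPKM in WT 1 to 3, and was listed at 0, 0.0453 and 0 FPKM in KO 1 to 3. The log2 fold change of -1.65 (SE 0.23, adjusted p = 0.0172, limma) depends on the pseudocount and was -4.33 with 0.1 in place of 1. The locus passed the 1 FPKM filter only through the WT libraries, where it is high, so its call is conditioned on the group compared. The call was lost without KO 1, KO 2 or KO 3 (adjusted p = 0.0882 to 0.0885), and without any WT library the locus fell under the 1 FPKM filter.

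MSTRG.2885, at chr1:161515025-161527203 on the minus strand, has 3 exons and 3126 bases. Its start is 1 base from that of the RefSeq lncRNA gene Gm31815, in the first window above, and its nearest gene in the table is Tnfsf18, which encodes the ligand of the immune receptor GITR, 9735 bases away. It was at 2.97, 2.77 and 1.98 FPKM in WT 1 to 3 and at 0.357, 0.119 and 0.648 FPKM in KO 1 to 3. All KO values lay below the WT values, a 6.87-fold difference of means, for which limma gave -1.39 as the log2 fold change (SE 0.25, adjusted p = 0.0372). The locus averaged 2.57 FPKM under the WT label and 0.374 under the KO label, so it too passed the 1 FPKM filter only through the WT libraries. Tnfsf18 was between 0 and 0.349 FPKM in the 6 libraries. The call of MSTRG.2885 was lost whichever library was left out (adjusted p = 0.0564 to 0.136, limma).

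**Figure D4:**
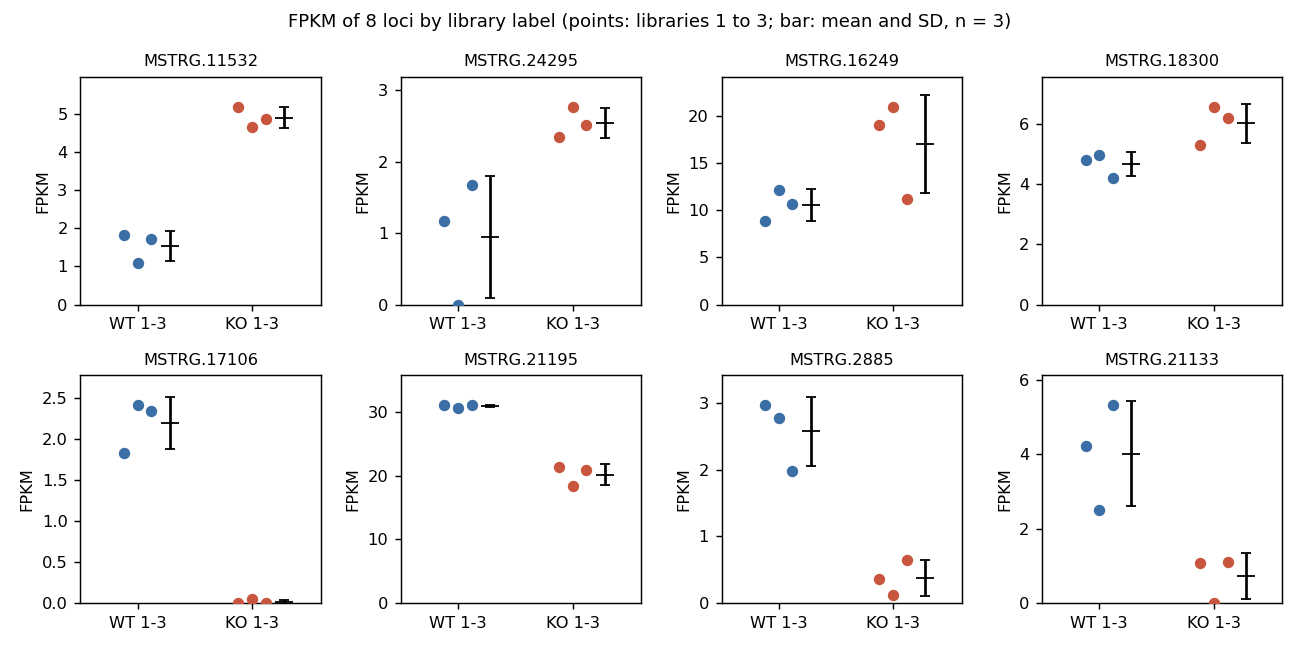
Points give the FPKM of libraries 1 to 3 of each label for 8 loci, and the bar beside them the mean and SD (n = 3). Sums include single-exon class u isoforms, and at MSTRG.21133 the spliced isoforms alone averaged under 1 FPKM. The upper row shows loci with higher means in the libraries labelled KO and the lower row loci with lower means, and the groups overlap only at MSTRG.16249, with 12.2 FPKM in WT 2 and 11.2 in KO 3.

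Among loci with separate groups that did not pass, 4 had the smallest p for a higher value. MSTRG.24295, with 3 exons at chr19:9899630-9902670 on the plus strand, starts 97 bases from Incenp, which encodes a protein of the chromosomal passenger complex in mitosis, and runs the other way. It was at 1.16, 0 and 1.68 FPKM in WT 1 to 3 and at 2.34, 2.77 and 2.52 FPKM in KO 1 to 3 (log2 fold change 0.98, adjusted p = 0.226, limma). Incenp passed, from 10.5 ± 0.494 to 17.2 ± 1.23 FPKM (SD, n = 3; log2 fold change 0.66, SE 0.10, adjusted p = 0.0220, limma). MSTRG.20802, which overlaps the RefSeq lncRNA gene 9630028I04Rik, was at 1.29 to 2.11 FPKM in the WT libraries and 2.33 to 2.91 in the KO libraries. MSTRG.51254 began 67 bases inside the lncRNA gene Gm31141 and was at 0.224 to 1.04 and 1.33 to 2.36 FPKM. MSTRG.1562, an isoform of 5 exons 126 bases behind the membrane protein gene Itm2c on the same strand, was at 0.942 to 1.34 and 1.66 to 2.15 FPKM. MSTRG.24295 and MSTRG.51254 passed the filter only through the KO libraries. MSTRG.20802, MSTRG.51254 and MSTRG.1562 had adjusted p-values of 0.21 to 0.242 in limma.

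Of the loci with lower KO values, MSTRG.21133 and MSTRG.12011 came closest to passing. MSTRG.21133, at chr17:33981472-33985260 on the plus strand, begins 20 bases before the RefSeq lncRNA gene AA388235, in the third window above, and 2682 bases from H2-K2, a gene of the major histocompatibility complex. It was at 4.22, 2.51 and 5.32 FPKM in WT 1 to 3 and at 1.06, 0 and 1.10 FPKM in KO 1 to 3 (log2 fold change -1.58, adjusted p = 0.0796, limma). This locus also passed the filter only through the WT libraries. Its sum includes single-exon class u isoforms, and with spliced isoforms only the locus fell under the 1 FPKM filter. H2-K2 itself was at most 0.315 FPKM in any library. MSTRG.12011, at the lncRNA gene Gm19554 on chromosome 12, was at 6.48, 7.38 and 7.94 FPKM and at 4.79, 5.30 and 4.59 FPKM (log2 fold change -0.49, adjusted p = 0.0880, limma). The KO values of both loci lay below their WT values. The nearest gene to MSTRG.12011 in the table, the poly(A) polymerase gene Papola, is 60349 bases away and was at 34.3 ± 2.47 and 37.1 ± 5.52 FPKM (SD, n = 3).

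The other loci with the highest means did not pass. MSTRG.16249 has 13 spliced isoforms, the most of any locus, at chr14:105589299-105608248 on the plus strand, and has an end in an exon of the GENCODE M21 gene 9330188P03Rik. Its sum was 8.82, 12.2 and 10.7 FPKM in WT 1 to 3 and 19.1, 20.995 and 11.2 FPKM in KO 1 to 3, so that KO 3 lay among the WT values (log2 fold change 0.61, adjusted p = 0.241, limma). MSTRG.17894, which starts 40 bases before the lncRNA gene Gm19378, was at 6.80, 16.3 and 6.40 FPKM and at 5.79, 9.27 and 3.33 FPKM, with WT 2 the highest. MSTRG.18300, at the lncRNA gene 6720473M11Rik, was at 4.82, 4.99 and 4.21 FPKM and at 5.32, 6.58 and 6.21 FPKM, with each KO value above each WT value (log2 fold change 0.31, adjusted p = 0.244, limma). MSTRG.37923, at the RefSeq zinc finger gene Zfp33b, had overlapping groups with means of 5.01 ± 2.12 and 5.21 ± 0.311 FPKM (SD, n = 3).

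Several of the loci with the highest means start back to back with a gene of the opposite strand. MSTRG.36631 starts 107 bases from Selenoi, an enzyme gene of phospholipid synthesis, in the last window above. It was at 7.94, 7.17 and 7.97 FPKM in WT 1 to 3 and at 7.09, 6.82 and 8.07 FPKM in KO 1 to 3, and the groups overlapped (log2 fold change -0.06, SE 0.11, adjusted p = 0.799, limma). MSTRG.47965, with 6 isoforms, starts 135 bases from Ap1m1, a subunit gene of the AP-1 vesicle coat adaptor, and was at 8.23, 6.88 and 9.25 FPKM and at 4.80, 5.51 and 5.43 FPKM (log2 fold change -0.54, adjusted p = 0.0903, limma). Its groups did not overlap, while Ap1m1 had 50.8 ± 0.181 and 44.5 ± 8.18 FPKM (SD, n = 3). MSTRG.11930, 63 bases from the messenger RNA cleavage factor gene Cpsf2, overlaps the RefSeq gene Ndufb1, which encodes a subunit of respiratory complex I. It was at 6.14, 3.48 and 5.73 FPKM and at 9.72, 7.18 and 4.82 FPKM, and its groups overlapped.

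By position, the median log2 fold change was -0.06 over 37 divergent, -0.32 over 22 downstream, -0.34 over 21 upstream and -0.20 over 16 convergent loci, against -0.06 over all loci of the table. Differences between these positions were not tested.

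For 63 tested loci the nearest annotated gene was tested too, and 3 of these genes passed (against 4.79% of all loci tested): Dpf3, Incenp and Mia3, which encodes a protein that loads collagen into transport vesicles. Locus and neighbour had a fold change of the same sign in 31 of the 63 pairs. Across pairs, the log2 fold changes had a Pearson correlation of 0.349 and a Spearman correlation of 0.24 (n = 63), and 0.25 by Pearson without the 2 neighbours farthest from the median. Under 5 kb the Pearson correlation was 0.451 (n = 39; 0.329 without the 2 farthest), and at 5 kb or more it was 0.0939 (n = 24). All points share the same 6 libraries, and some pairs share a neighbour, such as Tmem64. Some neighbour sums hold several genes, and Scaf8, the neighbour of MSTRG.19943, came from the same assembled locus. These values are therefore a description.

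**Figure D5:**
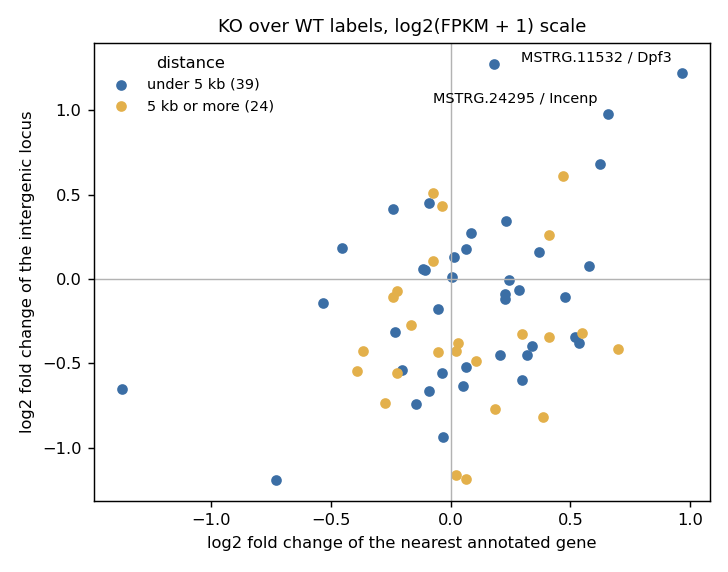
Each point is 1 of 63 intergenic loci, with the log2 fold change of its nearest annotated gene on the horizontal axis and its own on the vertical axis, KO over WT labels on the log2(FPKM + 1) scale; blue is under 5 kb and yellow 5 kb or more. MSTRG.11532 with Dpf3 and MSTRG.24295 with Incenp lie at the upper right.

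As single isoforms, none of 100 tested passed in limma, against 0.124% of all 30650 isoforms tested, and 16 had an unadjusted p under 0.05 (9.83% of all isoforms did). Groups did not overlap at 30 of the 100, with KO values above at 10 and below at 20, against 18.3%, 10.1% and 8.22% of all isoforms. Without WT 2 they lay above at 15 of 91 and below at 24, against 4897 and 3989 of all 28780 isoforms tested. Some isoforms, such as MSTRG.17106.2 and MSTRG.2885.1, passed the 1 FPKM filter only through the group where they are high. These counts therefore describe the isoforms and support no direction. The smallest p-values belonged to MSTRG.17106.2, MSTRG.11532.1 and MSTRG.2885.1, with adjusted p = 0.183, 0.183 and 0.221 in limma. How reads were divided among the isoforms of a locus varied between libraries. At MSTRG.46077, which starts 30 bases before the RefSeq lncRNA gene Gm51502 on chromosome 7, isoform MSTRG.46077.2 was at 0.0312, 1.39 and 8.41 FPKM in WT 1 to 3 and at 0.108, 10.0 and 0.564 FPKM in KO 1 to 3. The 8 isoforms of that locus summed to 5.62, 8.06 and 11.2 FPKM and to 9.81, 18.7 and 9.24 FPKM, and the groups overlapped. The coefficient of variation was taken over 29 loci with several spliced isoforms and over their 43 isoforms with a mean of at least 1 FPKM. Across the 3 WT libraries its median was 32.7% for the locus sums and 44.6% for these isoforms. Across the KO libraries it was 29.3% and 43.8%. A sum tends to vary less than its parts, so this gap alone does not show how reads were divided.

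Near Vim, on chromosome 2, the closest tested locus was MSTRG.26099, 11.8 Mb away, 82 bases from the peptidase gene Dpp7 and divergent from it. It was at 1.48, 1.04 and 0.518 FPKM in WT 1 to 3 and at 0.986, 1.01 and 1.82 FPKM in KO 1 to 3, with overlapping groups. MSTRG.26908, 48.0 Mb away, was at 1.36, 2.35 and 2.73 FPKM and at 1.24, 1.35 and 0.814 FPKM, with each KO value below each WT value (log2 fold change -0.54, adjusted p = 0.281, limma). MSTRG.29253, 152.9 Mb away, had values of 0.194 to 1.92 and 0.987 to 1.79 FPKM. Chromosome 6 does not carry Vim and is not part of the naming rule given below. It was picked without a rule and is no control for chromosome 2. Of its 8 loci 2 were tested, and both had negative log2 fold changes that did not pass (-0.26 and -0.27, adjusted p = 0.619 and 0.691, limma). Of all 96 tested loci 62 were negative.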

How the data were processed

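The 6 cultures were grouped by their titles. The table's wild-type columns carry the letters NT and were matched to the WT titles by elimination and by number. The authors deposited 1 isoform table with FPKM per isoform and library and a coverage signal per base, which is not scaled to library depth, per the file headers. The tools listed in the submitters' processing notes are StringTie, TopHat2, Bowtie2, FastQC and cutadapt. The sources used here give neither versions nor a genome build. Of 78510 reference isoforms found by ID in GENCODE M21 (GRCm38), 95.9% had identical coordinates, so GRCm38 annotation was laid over the table. All value columns were used (0 unused). The ratio of coverage to FPKM gave aligned bases.

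FPKM was summed per assembled locus, class u isoforms apart from the others. Loci and isoforms with a mean of at least 1 FPKM were fitted with limma 3.58.1 in R 4.3.3 on log2(FPKM + 1), a scale that understates changes of low features, with a mean-variance trend, two-sided, adjusted over all features tested, and called at 0.05. Library shares were tested by exact permutation. The fits were tested on simulated data. Python 3.11.15 with pandas 2.3.3 was used for the joins.

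Members and rules were chosen with earlier results of these data known. The rule named the 10 loci with the highest mean, called loci, up to 5 loci per direction with separate groups, the 3 isoforms with the smallest p, the 5 with most exons, and the 3 loci nearest Vim and with most isoforms. MSTRG.303.1, MSTRG.19935, Mia3 and loci in the closing section were chosen after their values were seen. Nearest genes are those listed in the table.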

Additional observations from a re-analysis of the deposited data

How the results depend on the processing

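The 4 called loci of 96 became 3 with a pseudocount of 0.1 and 3 of 211 with a 0.5 FPKM filter. There were 4 with median-ratio scaling, no trend or robust variance, and 4 of 94 with spliced isoforms only. Over the whole table the 709 calls of 14816 became 702 with the pseudocount and 455 of 27929 with the 0.5 FPKM filter. They became 623, 520 and 730 with median-ratio scaling, no trend and robust variance, and 736 of 14140 with spliced isoforms only. MSTRG.2885 was lost with the pseudocount of 0.1 (adjusted p = 0.059) and MSTRG.21195 with the 0.5 FPKM filter and with no trend (0.0545 each, limma). With no trend MSTRG.12683, which passed the filter only through the WT libraries, was called instead (adjusted p = 0.0367, limma). The 4 became 1 of 10 with a 5 FPKM filter (799 of 8216 over the whole table) and 0 with no filter (279 of 56698), where 23 of 316 loci, and 3968 over the whole table, had an unadjusted p under 0.05 (limma). Leaving out WT 1, WT 2 and WT 3 gave 1 of 99, 3 of 85 and 1 of 101 (limma). Leaving out KO 1, KO 2 or KO 3 gave 0. An unadjusted p under 0.05 (limma) was then found at 17 of 96, 15 of 102 and 15 of 100 loci. Over the whole table it was found at 2400 of 15589, 2352 of 15429 and 2393 of 15396 loci. Over the whole table the 709 calls became 378, 748 and 385 without WT 1, WT 2 and WT 3, and 215, 198 and 215 without KO 1, KO 2 and KO 3. The fit without WT 2 called MSTRG.19935 higher, at 1.56 and 2.09 FPKM in WT 1 and WT 3 and 4.22 to 5.40 in the libraries labelled KO (log2 fold change 1.01, adjusted p = 0.0435, limma); WT 2 had 5.81. With the replicate number as a block 0 of 96 loci were called (limma), and 18 in place of 709 over the whole table. An unadjusted p under 0.05 (limma) was then found at 16 of the 96, and at 2594 of 14816 over the whole table. Same-numbered libraries had correlations of deviations of 0.0145 to 0.019, and other pairs at most 0.003, so each library correlated best with its own number. All these values are small, and deviations from a group mean cancel within the group. This check therefore cannot decide whether the numbers pair the libraries. No isoform was called under any of these settings. Log2 fold changes changed sign for MSTRG.37923 (-0.16 without WT 2, up to 0.36 without WT 1), MSTRG.26099 (-0.0056 without WT 3, up to 0.35 without WT 1) and the isoform MSTRG.17766.9 (0.15 with a pseudocount of 0.1), none of them called. The group differences (KO minus WT) of the library share and of the count at 1 FPKM kept their sign but rested largely on WT 2: without it the share difference was -0.00827 instead of -0.0321 percentage points and the count difference -9.33 instead of -50.7, and at 5 FPKM the count difference was -0.667. The cause of the lost calls with fewer libraries was not tested. At 1 FPKM and 561 bases 15.9 to 20.3 reads back a value, which limits what low loci can show.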

Other observations

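At 6 of the 96 tested loci 1 library was at least 3 times the next highest, and these were chosen after their values were seen. In 5 of them the high library was WT 2: MSTRG.19943 had 10.9 FPKM there against at most 0.0431 elsewhere, MSTRG.5129 had 5.51 against 0.304, MSTRG.31114 had 4.15 against 0.573, MSTRG.17766 had 7.46 against 1.18 and MSTRG.3570 had 4.75 against 1.21. The other was MSTRG.54883 on the Y chromosome, with 10.2 FPKM in WT 3 and at most 1.28 in any other library. Over the 96 loci, WT 2 was the highest library at 39 and KO 3 the lowest at 25. Correlations of log2(FPKM + 1) over these 96 loci were 0.821 to 0.869 among the libraries labelled KO, 0.808 between WT 1 and WT 3, and 0.421 and 0.493 between WT 2 and these. The values share loci and annotation and are a description.

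MSTRG.12683, an isoform of 2 exons 6535 bases upstream of Gmnn on its strand, was at 1.65, 1.93 and 1.43 FPKM in WT 1 to 3 and 0.404 to 0.644 FPKM in the 3 KO libraries, all below the WT values. Gmnn encodes geminin, an inhibitor of replication licensing. The locus was not called (log2 fold change -0.82, SE 0.21, adjusted p = 0.0971, limma), except in the fit without the variance trend (adjusted p = 0.0367, limma). It passed the 1 FPKM filter only through the WT libraries, where it is high, so both fits are conditioned on the group compared.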
